A study of Mus musculus with 75 samples.

Results

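The genes described here encode the tip links and ankle links of the hair bundle and the scaffolds that anchor them: Cdh23, Pcdh15, Ush1c, Ush1g, Whrn, Adgrv1, Pdzd7, Clrn1 and Clrn2. They are 9 listed genes of the 55291 in the count table, and all 9 had a row. The 75 samples were single mouse cochlear cells in 5 groups. The 17 WT_P30 OHCs (outer hair cells, OHCs) came from Slc26a5 CreER/+; Ai9/+ mice given tamoxifen at P20 and P21, with CreER knocked in at the Prestin gene, and were picked at P30. The 16 WT_P60 SCs (supporting cells, SCs) came from Fgfr3-iCreER+; Ai9/+ mice given tamoxifen at P30 and P31 and picked at P60. This Cre marks mostly pillar and Deiters cells. The other 42 cells were Tdtomato+ cells picked at P60 from Fgfr3-Atoh1-Ikzf2-DTR mice. These carried Fgfr3-iCreER+ with the inducible transgene CAG-LSL-Atoh1+, the knock-in allele Rosa26 CAG-LSL-Ikzf2/+ and the allele Slc26a5 DTR/+. Tamoxifen on P30 and P31 switched on the transcription factors Atoh1 and Ikzf2 in their SCs. Diphtheria toxin (20 ng/g) at P36 then killed the endogenous OHCs through a toxin receptor placed at the Prestin locus. The authors sorted these 42 cells after sequencing, by their Myo7a and Prestin transcripts, into 3 groups. There were 11 OHC-like cells and 16 nascent HCs, and the last 15 are the SCs failing to become HCs, here failing SCs. The 42 cells together are called induced cells. All mice were C57BL/6. The wild-type groups differed in age as well as in cell type, and these cannot be told apart. The induced cells differed from WT_P30 OHCs in age, genotype, days of tamoxifen and toxin as well as in cell type. From WT_P60 SCs they differed in genotype and toxin. Their libraries were numbered apart from those of both wild-type groups. In these comparisons too, the differences cannot be told apart.

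Hair cells sense sound with a bundle of stereocilia that stand in rows of graded height. A tip link joins each shorter stereocilium to its taller neighbour and pulls on the transduction channel. The upper part of the link is made by cadherin 23 and the lower part by protocadherin 15. Harmonin (Ush1c) and Sans (Ush1g) tie the upper end to the actin core together with the motor myosin VIIa. Ankle links join the bases of growing stereocilia and contain the very large receptor Adgrv1, held by the scaffolds whirlin (Whrn) and Pdzd7. Clarin 1 and clarin 2 are small membrane proteins of the hair bundle. Variants in most of these genes cause Usher syndrome or other deafness.

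The total count on genes ran from 4264780 to 22934062 per cell, and 3348 to 9654 genes per cell reached 1 CPM (read count scaled to 1e6 reads of the cell). WT_P30 OHCs had the fewest genes (median 4777), against 6872 in WT_P60 SCs and 8488, 8066 and 6977 in OHC-like cells, nascent HCs and failing SCs. All 4 OHC markers were detected in WT_P30 OHCs, at a summed level of 10530 to 46930 CPM, against 0 to 194 CPM in WT_P60 SCs. All 6 SC markers were detected in WT_P60 SCs (1233 to 7721 CPM), and 4 of them, Sox2, Sox10, Gjb6 and Prox1, in no WT_P30 OHC. Markers of other cell types were also read. The inner hair cell marker Otof was detected in 14 of 17 WT_P30 OHCs (median 405 CPM), while Slc17a8 had a median of 0 there and Slc7a14 was in none, and the list summed to 0 to 1313 CPM. Pecam1, an endothelial marker, reached 1 CPM in 9 of 16 WT_P60 SCs (list sum 0 to 292 CPM, median 19.8) and the neuronal marker Nefl in 5 of 17 WT_P30 OHCs (list sum up to 197 CPM). The blood list reached 2485 CPM in 1 OHC-like cell and at most 88.6 CPM in the other groups. Glial, macrophage and fibroblast lists had a median of 0 in every group and stayed at or below 70.4 CPM. The part of these transcripts in the results was not tested. Consecutive library numbers in the labels are here called a library run. Each wild-type group made up a run of its own, and for these cells the run cannot be told apart from the cell type. The 42 cells of Fgfr3-Atoh1-Ikzf2-DTR mice were spread over 5 further runs, named A to E. The labels name no animal, so each group counts as 1 sample. No test was made between groups, and spreads and overlaps between cells are given as descriptions.

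Levels are CPM of the total scaled by trimmed mean of M-values (TMM). They are given per cell, and group means stand with the SD over cells. A gene was called detected in a cell at 1 CPM or more of the unscaled total, and shares of cells carry exact 95% Clopper-Pearson intervals that cover counting error only. A log2 ratio of group means past 2 in either direction, a 4-fold difference, was taken as past the fold. A group without a single count was set to 3 counts per cell for a ratio, which then is a lower bound.

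**Figure D1:**
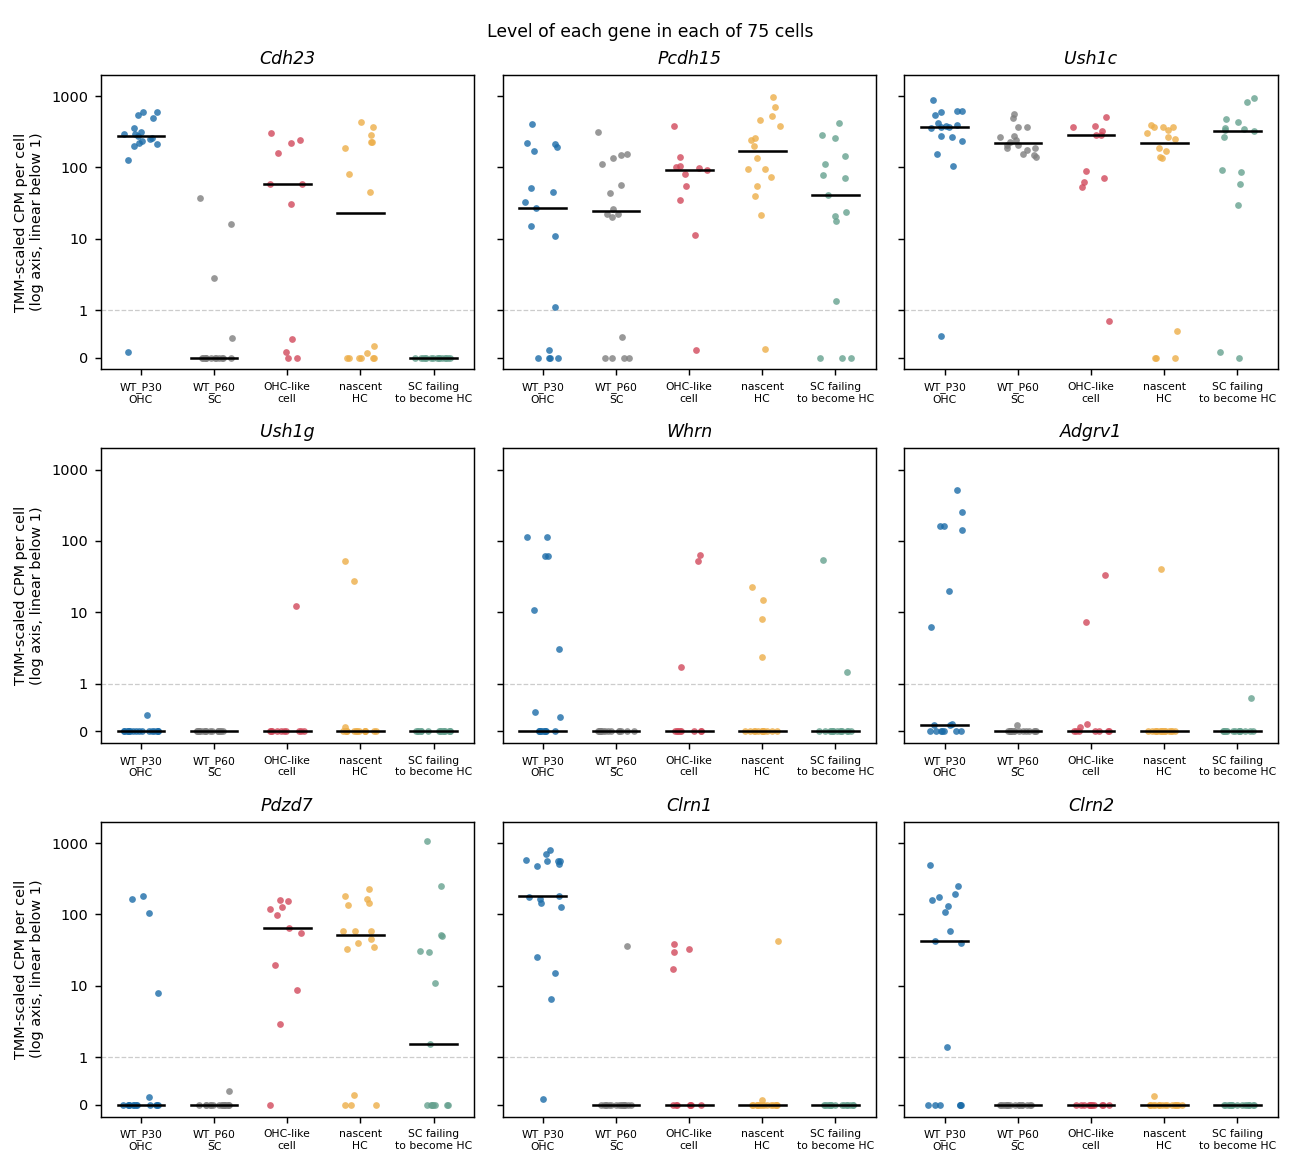
TMM-scaled CPM of each of the 9 genes (panels) in each of the 75 cells, by group, on an axis that is logarithmic above 1 CPM and linear below it. Each point is a cell, black bars are medians over cells, and the dashed line marks 1 CPM. Cdh23, Clrn1 and Clrn2 stood high in WT_P30 OHCs, Ush1c stood high in all 5 groups, and Pdzd7 reached 1 CPM in 10 of 11 OHC-like cells but in 4 of 17 WT_P30 OHCs.

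Cdh23, the upper tip link cadherin (chr10:60302748-60696490 of GRCm38, minus strand), separated the wild-type cells and was present in a part of the nascent HCs and the OHC-like cells. It lay between 0.13 and 601 CPM in the 17 WT_P30 OHCs, with a median of 277 CPM, and all but 1 of these cells held at least 128 CPM. In the 16 WT_P60 SCs it had a median of 0 CPM and a highest value of 37.3 CPM. The WT_P30 OHC mean of 310 ± 164 CPM was 87.8-fold that of the SCs, 3.53 ± 9.85 CPM, and 243-fold without WT_P60 SC 15. The OHC was higher in 268 of 272 pairs of 1 OHC and 1 SC, and the ranges overlapped because of the 1 OHC at 0.13 CPM.

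The OHC-like cells fell into cells with and without Cdh23. It was detected in 7 of 11 (63.6%, interval 30.8 to 89.1), at 30.4 to 299 CPM, and the other 4 cells were below 1 CPM. Nascent HCs showed the same split, with 8 of 16 cells detected (50.0%, 24.7 to 75.3) at 45.9 to 436 CPM. The group means were 97.2 ± 112 CPM in OHC-like cells and 116 ± 150 CPM in nascent HCs, which were 3.19-fold and 2.68-fold below the WT_P30 OHCs. The first of these ratios, a log2 ratio of −1.67, passed the fold without OHC-like cell 7 (−2.01) and with each of the other scalings (−2.05 with library size alone, −2.27 with DESeq2's size factors and −2.02 with TMMwsp). The second, −1.42, passed it with DESeq2's size factors only (−2.14). No read of Cdh23 was counted in any of the 15 failing SCs. By counting error alone, this allows a share of up to 21.8% of such cells with the gene.

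Against WT_P60 SCs, Cdh23 was 27.5-fold higher in OHC-like cells and 32.8-fold higher in nascent HCs. Without WT_P60 SC 15 these ratios were 76.0 and 90.5. Against the failing SCs, the bounds were 266-fold and 316-fold. In the failing SCs it was at least 9.64-fold lower than in WT_P60 SCs, a ratio that turned on SC 15 and came to a log2 ratio of −1.80 without that cell.

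Library run moved with this result. Runs A and C contained 14 of the 15 failing SCs, and Cdh23 was also not detected in the 1 OHC-like cell and the 2 nascent HCs of these runs. In run E, the other run with a failing SC, it was detected in 2 of 2 OHC-like cells, 1 of 4 nascent HCs and 0 of 1 failing SC. The part of the library run in the difference from the failing SCs was not tested. Within run B, 3 of 5 OHC-like cells (mean 29.8 CPM) and 4 of 6 nascent HCs (154 CPM) held Cdh23, and within run D 2 of 3 (180 CPM) and 3 of 4 (123 CPM).

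Pcdh15, the lower tip link cadherin (chr10:73099342-74649737, plus strand), was already present in wild-type SCs. It ran from 0 to 403 CPM in WT_P30 OHCs (median 26.8) and from 0 to 313 CPM in WT_P60 SCs (median 24.1), and was detected in 12 of 17 and 11 of 16 cells. The means were 81.1 ± 116 and 66.0 ± 86.6 CPM, a log2 ratio of 0.30, with the OHC higher in 133 and lower in 123 of 272 pairs. The difference was well inside the spread between cells.

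Nascent HCs had the highest mean of Pcdh15. Their cells ran from 0.17 to 983 CPM with a median of 169 CPM, and 15 of 16 (93.8%, 69.8 to 99.8) were detected. The mean of 267 ± 279 CPM was 4.05-fold that of WT_P60 SCs, just past the fold, with the nascent HC higher in 200 of 256 pairs. Leaving out any of 15 of the 32 cells brought the log2 ratio under 2, the lowest being 1.73, without nascent HC 16. Against WT_P30 OHCs the mean was 3.29-fold higher, a log2 ratio of 1.72 that became 2.13 without WT_P30 OHC 9. OHC-like cells ran from 0.17 to 379 CPM (median 91.7, mean 99.5 ± 102), and failing SCs from 0 to 420 CPM (median 41.5, mean 97.9 ± 127). Their means differed from those of WT_P30 OHCs and WT_P60 SCs by less than the SD over cells. The direction of the difference between OHC-like cells and WT_P30 OHCs changed with the scaling (log2 ratio 0.29 with TMM, −0.10 with library size alone).

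Cells that held the upper and the lower cadherin were counted next. Cdh23 and Pcdh15 were detected together in 11 of 17 WT_P30 OHCs (interval 38.3 to 85.8%), 3 of 16 WT_P60 SCs (4.05 to 45.6%), 6 of 11 OHC-like cells (23.4 to 83.2%), 8 of 16 nascent HCs (24.7 to 75.3%) and 0 of 15 failing SCs (up to 21.8%). In nascent HCs every cell with Cdh23 also had Pcdh15. Adding harmonin (Ush1c) left 11 WT_P30 OHCs, 5 OHC-like cells and 7 nascent HCs with all 3 transcripts.

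Ush1c, the harmonin scaffold (chr7:46195350-46238503, minus strand), was detected in the most cells of all 9 genes. It was detected in 16 of 17 WT_P30 OHCs, 16 of 16 WT_P60 SCs, 10 of 11 OHC-like cells, 12 of 16 nascent HCs and 13 of 15 failing SCs. Its median was 369, 217, 286, 216 and 327 CPM in these groups, and the lowest WT_P60 SC held 138 CPM. The means were 385 ± 216, 263 ± 125, 220 ± 169, 205 ± 148 and 306 ± 287 CPM. No pair of groups was past the fold, and each step in the order of the means was smaller than the SD over cells. By TPM, which like CPM is a share of the cell's transcripts but takes exon length into account, Ush1c had the highest mean of the 9 genes in each group, from 107 TPM in nascent HCs to 243 TPM in WT_P30 OHCs, where it was level with Clrn2.

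The levels of Ush1c and Pcdh15 were negatively correlated in OHC-like cells and nascent HCs. Over the 27 OHC-like cells and nascent HCs, Pearson's r of their log2(CPM + 1) was −0.53, and over the 17 WT_P30 OHCs it was 0.47. This pair was picked from all pairs of the listed genes. Over the 27 cells, r of Pcdh15 was −0.60 with Ush1g and −0.53 with Clrn2, and r of Ush1g with Clrn2 was 0.67. Ush1c was under 1 CPM in nascent HCs 11, 14, 15 and 16 and in OHC-like cell 4. Pcdh15 was at 0.17 CPM in nascent HC 13 and OHC-like cell 7. The part of these cells in r was not tested. Cells of a run share their series of library numbers. In the 4 nascent HCs of run E, Pcdh15 averaged 496 CPM and Ush1c 34.3 CPM, with Ush1c detected in 1 of 4. In the 6 nascent HCs of run B the order was the opposite, with Pcdh15 at 140 CPM and Ush1c at 290 CPM.

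Ush1g, which encodes Sans, the partner of harmonin at the upper tip link (chr11:115315192-115322041, minus strand), was close to absent. It had 3 counts in all 17 WT_P30 OHCs together, and no count in WT_P60 SCs or failing SCs. Of the 11 OHC-like cells 1 held it, at 12.1 CPM, and of the 16 nascent HCs 2, at 27.2 and 52.7 CPM. Against the 3 counts of the WT_P30 OHCs, the ratio of summed counts was 42.9 in OHC-like cells (95% counting interval 14.3 to 211) and 204 in nascent HCs (69.5 to 989). Nascent HCs were at least 12.1-fold above WT_P60 SCs, and at least 4.41-fold without nascent HC 13. Without OHC-like cell 11 no read remained in that group. Without WT_P30 OHC 12, which held the 3 counts, the bounds on the ratios of means were 2.59 and 11.8, and without nascent HC 13 the second ratio of means was 89.0 instead of 244. Against failing SCs, nascent HCs were at least 13.6-fold higher, and 4.97-fold without nascent HC 13. By counting error alone, a share of up to 19.5% of WT_P30 OHCs was not detectable with this many cells.

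The 3 ankle link genes behaved differently from one another. Adgrv1, the giant adhesion receptor of the link (chr13:81095068-81633154, minus strand), was mainly a transcript of WT_P30 OHCs, where 7 of 17 cells (41.2%, 18.4 to 67.1) held it and the highest had 516 CPM. Its lowest value there was 0 and its median 0.13 CPM, so its mean of 73.7 ± 139 CPM came from a minority of cells. No WT_P60 SC and no failing SC reached 1 CPM, with 1 and 3 counts over these groups. The gene was found in 2 of 11 OHC-like cells (7.21 and 33.1 CPM) and in 1 of 16 nascent HCs (40.7 CPM).

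For Adgrv1 the ratio of summed counts of WT_P30 OHCs over WT_P60 SCs was 8873, with a counting interval of 1592 to 350520. Without WT_P60 SC 6, which held the 1 count, the mean of the OHCs was at least 179-fold higher, and without WT_P30 OHC 5 the ratio of means fell from 8513 to 5323. Relative to WT_P30 OHCs, OHC-like cells were 20.0-fold lower and nascent HCs 29.0-fold lower. The first log2 ratio, −4.32, became −3.64 without WT_P30 OHC 5 and −6.63 without OHC-like cell 11. The second, −4.86, became −4.18 without the same OHC and no read remained without nascent HC 4. Relative to WT_P60 SCs, the ratio of summed counts was 393 in OHC-like cells (70.1 to 15574) and 253 in nascent HCs (45.2 to 10024), and these rest on 3 cells. Without WT_P60 SC 6 the ratios of means were at least 8.93 and at least 6.17. Without OHC-like cell 11 the first ratio of means was 85.8 instead of 426, and without nascent HC 4 no ratio could be given for the second.

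Whrn, the whirlin scaffold (chr4:63414910-63495991, minus strand), was found at low level in a minority of cells outside the wild-type SCs. It lay between 0 and 115 CPM in WT_P30 OHCs, with a median of 0 and 6 of 17 cells detected (35.3%, 14.2 to 61.7), and had no count in any WT_P60 SC. It was detected in 3 of 11 OHC-like cells (up to 62.7 CPM), 4 of 16 nascent HCs (up to 22.4 CPM) and 2 of 15 failing SCs (1.44 and 53.8 CPM). The means of 21.5 ± 40.1, 10.7 ± 23.4, 2.96 ± 6.55 and 3.68 ± 13.9 CPM were at least 52.0, 25.9, 7.17 and 8.92 times the WT_P60 SC floor. Single cells moved the last 3 of these, and the ratio of the failing SCs rested on 1 cell. OHC-like cells came to at least 15.6-fold without OHC-like cell 4 and 13.3-fold without OHC-like cell 6, and nascent HCs to 4.04-fold without nascent HC 5. Without failing SC 7 no ratio could be given for that group. Nascent HCs were 7.26-fold below WT_P30 OHCs, with a log2 ratio of −2.86 that became −3.69 without nascent HC 5. The 2.01-fold lower mean of OHC-like cells was inside the spread between cells.

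Pdzd7, the other ankle link scaffold (chr19:45026906-45045717, minus strand), had a higher mean in OHC-like cells and nascent HCs than in WT_P30 OHCs. It lay between 0 and 183 CPM in WT_P30 OHCs, with a median of 0, and was detected in 4 of 17 (23.5%, 6.81 to 49.9). In WT_P60 SCs it had 2 counts in all, both in SC 9, and was detected in none (up to 20.6%). In OHC-like cells it lay between 0 and 157 CPM with a median of 63.8, and 10 of 11 cells (90.9%, 58.7 to 99.8) were detected. In nascent HCs it lay between 0 and 224 CPM with a median of 51.9, and 12 of 16 (75.0%, 47.6 to 92.7) were detected.

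Failing SCs also held Pdzd7, in 8 of 15 cells (53.3%, 26.6 to 78.7), with a median of 1.51 CPM and 1 cell at 1063 CPM. That cell, failing SC 2, was 1 of the 3 induced cells with fewer than 5000 genes at 1 CPM (4859). The group mean of 99.4 ± 274 CPM, the highest of the 5, rested on it, and the order turned without it: OHC-like cells were then 2.40-fold and nascent HCs 2.41-fold higher than the failing SCs, in place of log2 ratios of −0.44 and −0.43.

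Against the 2 counts of Pdzd7 in WT_P60 SCs, ratios of summed counts were 4413 in OHC-like cells (1221 to 36445), 4286 in nascent HCs (1186 to 35395), 3916 in failing SCs (1084 to 32343) and 1563 in WT_P30 OHCs (432 to 12910). Without WT_P60 SC 9 the ratios of means were at least 178, 179, 241 and 65.4. Without failing SC 2 the ratio of means of its group was 1688 instead of 5497, and without WT_P30 OHC 7 that of the OHCs was 949 instead of 1488. Relative to WT_P30 OHCs, the means of OHC-like cells (73.1 ± 60.8 CPM) and nascent HCs (73.7 ± 72.4 CPM) were 2.72-fold and 2.74-fold higher than 26.9 ± 60.4 CPM, short of the fold. Without WT_P30 OHC 7 they were 4.26-fold and 4.29-fold higher. As log2 ratios the 2 differences were 1.44 and 1.45 with TMM. The genes kept by a filter on low counts also stood higher in these comparisons, by a median of 0.70 and 0.63 with TMM. With DESeq2's size factors that shift was 0.15 and 0.07, so the size of the Pdzd7 ratios depends on the scaling. The OHC-like cell or nascent HC was the higher in 143 of 187 and in 190 of 272 pairs. Among the induced cells the gene was detected in each of runs A to E, and WT_P30 OHCs had fewer genes detected per cell (median 4777) than OHC-like cells (8488) or nascent HCs (8066). The part of this difference in the result was not tested. Exons of Pdzd7 and of its neighbour Lzts2 share 206 bases on opposite strands, 5.08% of the exonic length of Pdzd7, and the strand setting of the counting is not stated.

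The mean of OHC-like cells stood above that of WT_P30 OHCs at Pdzd7, short of the fold, and below it at Clrn1. Atoh1, which was induced in these cells, is a basic helix-loop-helix factor of the kind that binds E-boxes. For these reasons the sequences before the start sites of Pdzd7 and Clrn1 are shown. They are read 5′ to 3′ on the gene's strand from GRCm38.p6, with CAGCTG or CAGATG, on either strand, in capitals. Other letters of the form CANNTG stay in lower case. For Pdzd7 the 250 bases before the RefSeq start site are given, and for Clrn1 the first 122 of them, which lie before the GENCODE start as well.
Pdzd7, chr19:45045773-45046022, minus strand: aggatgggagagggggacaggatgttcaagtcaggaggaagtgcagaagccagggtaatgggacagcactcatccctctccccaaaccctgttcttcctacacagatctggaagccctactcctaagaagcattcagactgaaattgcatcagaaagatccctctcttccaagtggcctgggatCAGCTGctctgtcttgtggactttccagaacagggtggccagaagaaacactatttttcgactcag
Clrn1, chr3:58885341-58885462, minus strand: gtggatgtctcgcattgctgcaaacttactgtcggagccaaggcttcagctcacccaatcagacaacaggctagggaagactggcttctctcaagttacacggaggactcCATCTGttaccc

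The E-box CAGCTG began 66 bases before the RefSeq start site of Pdzd7. The E-box CAGATG, read as CATCTG on this strand, began 140 bases before the RefSeq start site of Clrn1. Promoter windows of 300 bases, reaching 50 bases past the start site, were given for 7 of the 9 genes, not for Ush1g and Clrn2. On both strands, CAGCTG was in 16.3% of 32851 mouse promoter windows and in 2 of the 7, Pcdh15 and Pdzd7. In Pcdh15 it began 8 bases past the RefSeq start site. That window, chr10:73821617-73821916, lies inside the gene as GENCODE places it, from 73099342. CAGATG was in 17.2% and in 1 of the 7, and the general form CANNTG, which covers both, in 72.3% and in 6 of the 7. Adgrv1, also past the fold and lower in OHC-like cells than in WT_P30 OHCs, had neither CAGCTG nor CAGATG. The matches are descriptions of the letters only, and a link to Atoh1 or to the levels was not tested.

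Clrn1, which encodes clarin 1 (chr3:58844028-58885340, minus strand), was as marked an OHC transcript as Cdh23 and was the lower of them in OHC-like cells and nascent HCs. It lay between 0.12 and 802 CPM in WT_P30 OHCs with a median of 182, and 16 of 17 cells were detected. Of the 16 WT_P60 SCs, 1 held it, at 36.3 CPM. The means of 330 ± 274 and 2.27 ± 9.07 CPM differed 146-fold, and at least 799-fold without WT_P60 SC 5, with the OHC higher in 268 of 272 pairs. Among OHC-like cells 4 of 11 held it (36.4%, 10.9 to 69.2), at 17.0 to 38.8 CPM, and among nascent HCs 1 of 16, at 43.0 CPM. Failing SCs had no count, which was at least 6.19-fold lower than in WT_P60 SCs, and no ratio could be given without WT_P60 SC 5.

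The OHC-like mean of Clrn1, 10.8 ± 15.8 CPM, was 30.7-fold below that of WT_P30 OHCs, with the OHC-like cell lower in 172 of 187 pairs, and the highest OHC-like cell held less than the OHC median. The nascent HC mean, 2.70 ± 10.8 CPM, was 122-fold lower, a log2 ratio of −6.94, and without nascent HC 6 a single read remained in that group. Against WT_P60 SCs the OHC-like cells were 4.75-fold higher, which leaving out OHC-like cell 3, 5 or 11 brought under the fold (log2 ratios of 1.81, 1.97 and 1.91), while without WT_P60 SC 5 they were at least 26.0-fold higher. The log2 ratio of 0.25 between nascent HCs and WT_P60 SCs compared 1 detected cell with 1 detected cell. Without nascent HC 6 a single read stood against those of WT_P60 SC 5, and without WT_P60 SC 5 the nascent HCs were at least 6.52-fold higher. All 4 OHC-like cells with Clrn1 were in runs B and E, where 1 of 10 nascent HCs held it.

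Clrn2, which encodes clarin 2 (chr5:45453751-45464149, plus strand), was detected in WT_P30 OHCs and in no cell of the other 4 groups. It lay between 0 and 493 CPM there, with a median of 42.1 and a mean of 97.1 ± 131 CPM, and 11 of 17 cells (64.7%, 38.3 to 85.8) were detected. WT_P60 SCs, OHC-like cells and failing SCs had no count, and nascent HCs had 2 counts in all. The WT_P30 OHC mean was at least 235-fold that of WT_P60 SCs and at least 317-fold that of OHC-like cells. The summed counts of nascent HCs, 2 reads in nascent HC 13, over those of the OHCs gave a ratio of 0.000109 (1.32e-05 to 0.000395). Without that cell no read remained in the nascent HCs. By counting error alone, a count of 0 allowed the gene in up to 28.5% of OHC-like cells. Both clarins were detected together in 10 of 17 WT_P30 OHCs and in no other cell. By TPM, Clrn2 averaged 243 in WT_P30 OHCs, beside 243 for Ush1c and 211 for Clrn1. Cdh23 averaged 44.3 TPM and Pdzd7 15.4 TPM there, and Pcdh15, Whrn and Adgrv1 8.15, 7.74 and 7.50 TPM. In WT_P60 SCs Ush1c averaged 187 TPM and Pcdh15 7.36 TPM, and none of the other 7 was above 1.58 TPM.

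**Figure D2:**
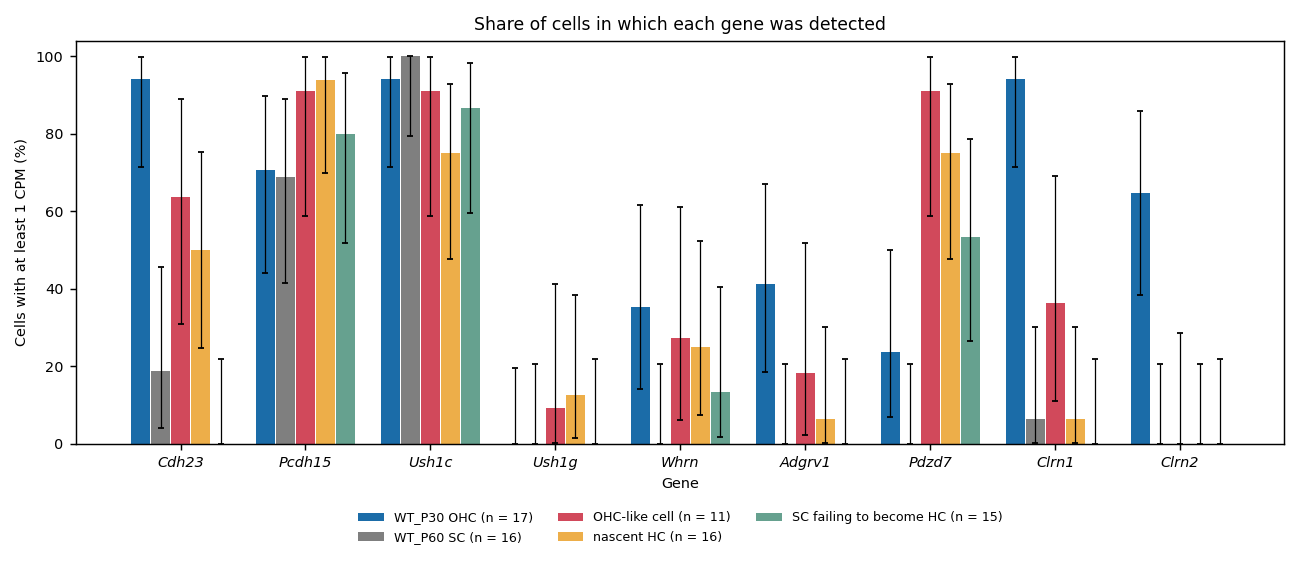
Share of cells in each group with at least 1 CPM of each gene, in percent. Bars are shares, and error bars are exact 95% Clopper-Pearson intervals over the cells of a group, which cover counting error only. Ush1c was detected in 75.0 to 100% of every group, Clrn2 only in WT_P30 OHCs (64.7%), and Pdzd7 in 90.9% of OHC-like cells against 23.5% of WT_P30 OHCs.

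Across groups, only 2 steps in the order of the group means were larger than the larger SD of the neighbouring groups: from WT_P30 OHCs to nascent HCs for Cdh23 and from WT_P30 OHCs to OHC-like cells for Clrn1. The other 34 of 36 steps were not larger than that SD, and some of them lay between groups without a single count. An SD is wide where only some cells hold a gene. Clrn2 averaged 97.1 ± 131 CPM in WT_P30 OHCs (11 of 17 cells detected) and 0.011 CPM in nascent HCs (0 of 16). No gene of the 9 had separate ranges in any of 9 comparisons between groups. Such genes were rare among the 11443 kept by a filter on low counts. Of these, 1.08% stood higher and 1.96% lower in every WT_P30 OHC than in every WT_P60 SC, and no comparison had a larger share than 1.96%. With shares this small, 0 of 9 does not set these genes apart. Of the 9 genes, 7 passed that filter, and Ush1g and Adgrv1 did not. The counts below cover all 9, while the percentages beside them are over the genes the filter kept. The percentages in brackets are over all genes with a ratio, without the filter.

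Between WT_P30 OHCs and WT_P60 SCs, 6 of the 9 genes were past the fold and higher in OHCs (Cdh23, Whrn, Adgrv1, Pdzd7, Clrn1 and Clrn2), beside 13.2% of the genes kept (18.0% without the filter), and none was lower, beside 22.0% (26.1%). The median log2 ratio over the 8 genes with a ratio was 6.82, against −0.23 over all genes kept. Against WT_P60 SCs, 5 genes were higher in OHC-like cells (Cdh23, Whrn, Adgrv1, Pdzd7 and Clrn1), beside 19.4% of the genes kept (21.5% without the filter). In nascent HCs 6 were higher (Cdh23, Pcdh15, Ush1g, Whrn, Adgrv1 and Pdzd7), beside 18.0% (20.2%). In failing SCs 2 were higher (Whrn and Pdzd7), beside 15.4% (20.6%), and 2 lower (Cdh23 and Clrn1), beside 7.37% (14.0%). These 3 comparisons share the WT_P60 SCs.

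Relative to WT_P30 OHCs, 3 genes were lower in OHC-like cells (Adgrv1, Clrn1 and Clrn2), beside 7.39% of the genes kept (14.5% without the filter), and 4 in nascent HCs (Whrn, Adgrv1, Clrn1 and Clrn2), beside 7.17% (14.8%). Ush1g alone was higher, from the few reads given above, beside 25.7% and 25.9% (27.9% and 27.5%). The median log2 ratio over the 9 genes was −1.01 and −1.42, against 0.70 and 0.63 over the genes kept. That shift of the genes kept was 0.34 and 0.37 with library size alone and 0.15 and 0.07 with DESeq2's size factors, and the 3 genes lower in OHC-like cells and the 4 lower in nascent HCs kept that call under each scaling. Cdh23 joined the lower genes in OHC-like cells, making 4, with each of the other 3 scalings, and in nascent HCs, making 5, with DESeq2's size factors.

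Among the induced cells, 3 genes were higher in OHC-like cells than in failing SCs (Cdh23, Adgrv1 and Clrn1), beside 11.6% of the genes kept (16.6% without the filter), and 4 in nascent HCs (Cdh23, Ush1g, Adgrv1 and Clrn1), beside 9.91% (14.5%). The ratios for Adgrv1 rest on the 3 cells named above and on 3 reads in the failing SCs. The ratio of summed counts was 139 in OHC-like cells (47.0 to 675) and 89.2 in nascent HCs (30.3 to 434). Without failing SC 2, which held those reads, the bounds on the ratios of means were 10.4 and 7.18, and without OHC-like cell 11 the first was 16.1 instead of 80.0. Clrn1 was likewise at least 29.4-fold (OHC-like cells) and 7.36-fold (nascent HCs) above failing SCs, the latter from nascent HC 6 alone. For Whrn, failing SC 7 set the ratios, and without it the log2 ratios were 6.70 and 4.85 in place of 1.54 and −0.31. Between OHC-like cells and nascent HCs no gene was higher in the former, beside 3.66% (11.5% without the filter), and Ush1g was lower, beside 5.07% (11.9%), a call that fell under the fold without nascent HC 1 (log2 ratio −1.68) or 13 (−0.73). Clrn1 was just short of the fold (3.99-fold higher in OHC-like cells) and passed it when any of 8 of the 27 cells was left out. Whrn, at a log2 ratio of 1.85, passed it without nascent HC 1, 2 or 5 (2.02, 2.29 and 2.68), and came to 0.89 without OHC-like cell 6. Adgrv1, at 0.53, came to a ratio of at least 14.1 without nascent HC 4 and had a log2 ratio of −1.78 without OHC-like cell 11.

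**Figure D3:**
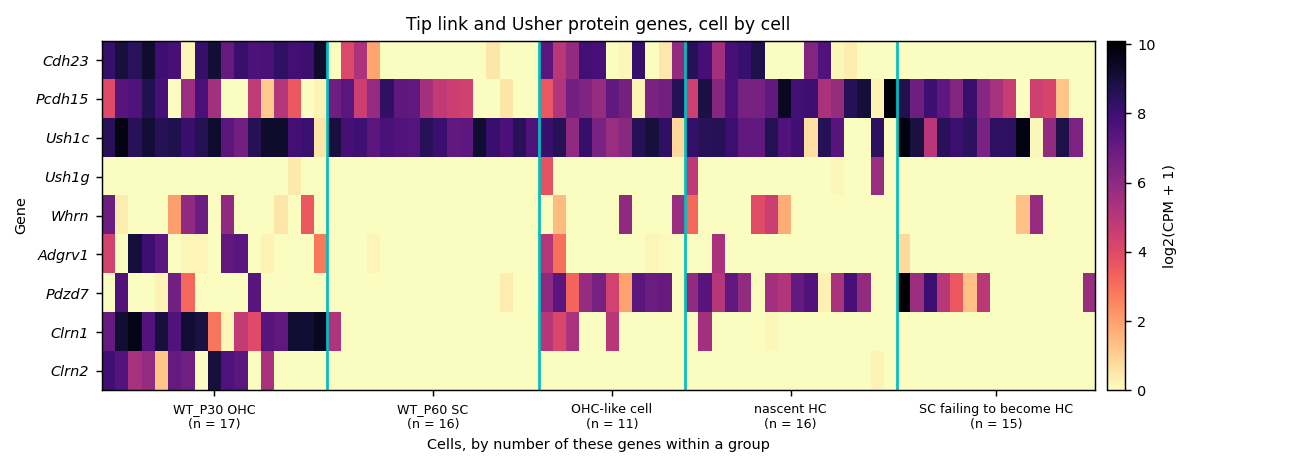
Level of the 9 genes (rows) in each of the 75 cells (columns), as log2(CPM + 1), with cells ordered within each group by how many of the genes they held. WT_P30 OHCs held a median of 5 of the 9 genes, WT_P60 SCs and failing SCs 2, OHC-like cells 4 and nascent HCs 3.5, and the rows of Clrn1 and Clrn2 thin out to the right of the first group.

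Cell by cell, WT_P30 OHCs held 3 to 7 of the 9 genes (median 5, mean 5.18 ± 1.01) and WT_P60 SCs 1 to 3 (median 2, mean 1.94 ± 0.77), which were Ush1c and Pcdh15 in most cells. OHC-like cells held 3 to 7 (median 4, mean 4.27 ± 1.49), nascent HCs 1 to 6 (median 3.5, mean 3.44 ± 1.31) and failing SCs 1 to 3 (median 2, mean 2.33 ± 0.72). The sets differed in composition. Cdh23, Pcdh15, Ush1c and Pdzd7 were all detected in 5 of 11 OHC-like cells and 5 of 16 nascent HCs, but in 2 of 17 WT_P30 OHCs. The whole ankle link trio of Adgrv1, Whrn and Pdzd7 was detected in 1 cell of the 75, OHC-like cell 2. It was detected in 0 of 17 WT_P30 OHCs, which by counting error alone allows up to 19.5% of them. Adgrv1 and Pdzd7 were not detected together in any WT_P30 OHC, and 6 of the 17 held neither. Singly, Adgrv1 was detected in 7, Whrn in 6 and Pdzd7 in 4 of the 17. Departures of these joint counts from the single shares were not tested.

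OHC-like cells 2 and 11 held 7 of the genes each, the most among the induced cells, and came from runs B and E. OHC-like cell 4, with 3348 genes at 1 CPM, was the only OHC-like cell without Pdzd7 and held Cdh23, Pcdh15 and Whrn.

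**Figure D4:**
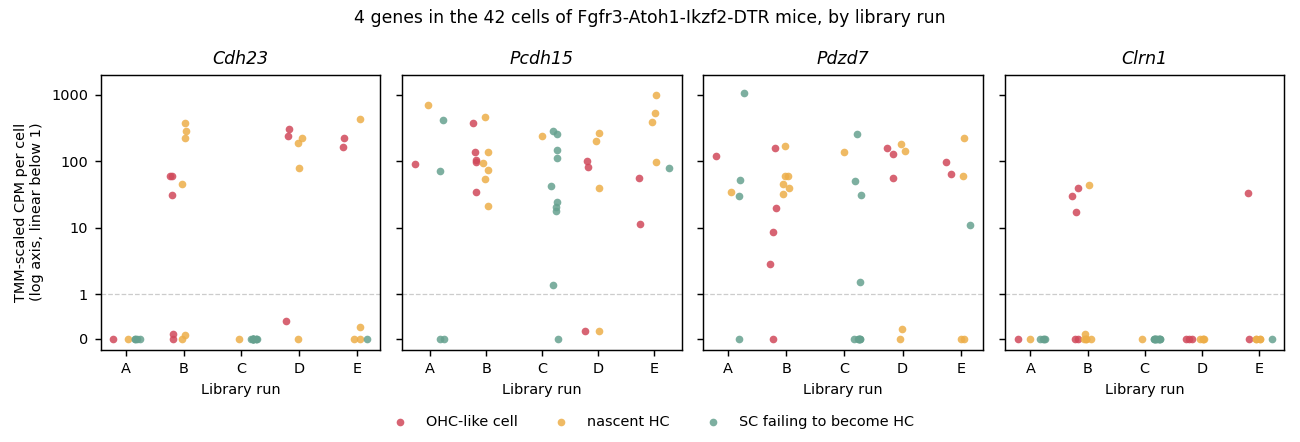
TMM-scaled CPM of Cdh23, Pcdh15, Pdzd7 and Clrn1 in the 42 cells of Fgfr3-Atoh1-Ikzf2-DTR mice by library run (A to E), on an axis that is logarithmic above 1 CPM and linear below it, with points colored by group. Cdh23 was detected in no cell of runs A and C, whereas Pdzd7 and Pcdh15 were detected in all 5 runs.

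A list of 11 other genes of the links and of the transduction complex they pull on was followed beside them: Myo7a, Cib2, Vezt, Ptprq, Strc, Lhfpl5, Tmie, Tmc1, Myo15, Eps8 and Myo1c. Myo7a had been used to sort the induced cells, so its level there is not a finding. Between WT_P30 OHCs and WT_P60 SCs, 8 of the 11 were past the fold and higher (all but Vezt, Eps8 and Myo1c), beside 13.2% of the genes kept by the filter, and 6 of these did not overlap between cells, beside 1.08%. Myo1c was lower, beside 22.0%. The median log2 ratio over the 11 was 8.42, against −0.23 over the genes kept. These 8 and 1 calls also held with any 1 cell left out.

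Relative to WT_P30 OHCs, Ptprq, Strc, Tmc1 and Myo15 were past the fold and lower in OHC-like cells, with any 1 cell left out as well, beside 7.39% of the genes kept. The cells of these groups did not overlap at Tmc1 and Myo15, beside 0.297%. Tmc1, a pore subunit of the transduction channel, ran from 656 to 2329 CPM in WT_P30 OHCs (mean 1224). In OHC-like cells it was detected in 2 of 11, and 437 CPM in OHC-like cell 11 made up nearly all of the mean of 40.1 CPM, which was 0.469 CPM without that cell. Myo15, the motor that carries whirlin to the stereocilium tip, had a mean of 1439 CPM in WT_P30 OHCs. It was detected in 4 of 11 OHC-like cells, with a mean of 13.1 CPM that came to 1.98 CPM without OHC-like cell 11, which held 124 CPM. Myo1c, an unconventional myosin, was the 1 gene of the list past the fold and higher, at 21.7 CPM in OHC-like cells and 2.81 CPM in WT_P30 OHCs, beside 25.7% of the genes kept. Lhfpl5, a membrane partner of protocadherin 15, was nearly level, at 2037 and 1886 CPM.

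Against WT_P60 SCs, the means of 8 of the 11 were past the fold and higher in OHC-like cells, beside 19.4%, of which 5 (Myo7a, Cib2, Strc, Lhfpl5 and Tmie) were so without any 1 cell. Myo7a counts among the 8 and the 5 through the sorting and is not a finding. The calls of Ptprq, Tmc1 and Myo15 rested on OHC-like cell 11. Without it 2 reads of Ptprq remained, and the log2 ratios of Tmc1 and Myo15 were 0.18 and 0.32. Eps8, an actin regulator of stereocilium tips, was lower (log2 ratio −2.22, and −1.73 without WT_P60 SC 1), beside 10.3%. In nascent HCs 7 were higher, beside 18.0%, and 5 without any 1 cell, again with Myo7a among both counts through the sorting. Ptprq and Myo15, detected in 1 of 16 cells each, rested on nascent HC 2 (290 and 287 CPM).

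In failing SCs, Cib2 and Tmie were past the fold above WT_P60 SCs beside Myo7a, which was used in the sorting, against 15.4% of the genes kept. Vezt and Strc were past it below them, beside 7.37%. Strc was detected in 1 of 16 WT_P60 SCs, and without that cell, WT_P60 SC 6, no ratio could be given. Vezt, at a log2 ratio of −2.16, came to −1.99 without WT_P60 SC 4 or 11 and to −1.98 without WT_P60 SC 15.

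A second list held 5 genes that play the part of these proteins in the brush border of gut and kidney, Cdhr2, Cdhr5, Myo7b, Anks4b and Clrn3. None passed the filter on low counts. Myo7b had no count in WT_P60 SCs. It reached 1 CPM in 2 of 11 OHC-like cells, where the mean of 8.59 CPM came from OHC-like cell 10 (88.1 CPM) and was 0.634 CPM without it, under the fold. Among nascent HCs 3 of 16 held it, and their group mean was 7.35 CPM. Anks4b and Clrn3 had no count in OHC-like cells or in either wild-type group.

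Among the genes whose pattern was most like the mean log2(CPM + 1) of the 9 over the 75 cells were Gm6558, Cacna1d, Slc26a5 and Strc (Pearson's r = 0.78 for each). Slc26a5 is the Prestin gene, used to sort the induced cells and to mark the WT_P30 OHCs, so its place there is not a finding. Over the 42 induced cells the nearest were Ppp2r5b (0.80), Ica1l (0.74), Calb2 (0.72), Fam57b (0.71) and Calml4 (0.71). By single gene over the 75 cells, the nearest to Clrn1 was AA465934 (0.87), to Cdh23 Klhdc7b (0.85), to Clrn2 Zfp365 (0.78) and to Pdzd7 Mapk12 (0.70). For Ush1c, Ush1g, Adgrv1, Whrn and Pcdh15 the nearest genes, Ndufa1, Cox8b, Scg3, Def6 and Slc7a1, had r of 0.53 to 0.60. The cells share their group and library run, so these values describe the cells together and carry no test.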

How the data were processed

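Single mouse cochlear cells were picked by hand, amplified with a Smart-Seq kit, tagmented and sequenced as paired ends. Per the labels and the study's methods, the pipeline was FastQC 0.11.9 for read quality, Trimmomatic 0.39 for adapters and HISAT2 2.1.0 for alignment, on the build GRCm38. The authors deposited raw read counts per gene from HTSeq 0.10.0, not normalized or pooled. The annotation release and the strand setting are not given in the sources used here. Counts are reads without molecular identifiers, so intervals and floors cover counting error only. A row for WPRE, which is no mouse gene, with 0.0254% of counts, was left out.

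The deposited counts were scaled with TMM (edgeR 4.0.16, R 4.3.3), and filterByExpr with a minimum count of 10 kept 11443 of 55291 genes. No model was fitted and no p-value was computed, because no label or method names the animals. Ratios of group means use the floor of 3 counts per cell for a group without counts, and none is given where both groups are at or under it. TPM used GENCODE M21 exon lengths, found for 53292 genes, and coordinates come from the same annotation. Promoters are from RefSeq. The 2 most similar cells correlated at r = 0.687 over log2(CPM + 1), so no pair was taken for 1 cell. All 9 listed genes were named in the text, the other lists as counts, and neighbours by Pearson's r: the first 5 for the mean of the genes and 1 for each gene. A neighbour and a gene of a list that this rule would name are not reported here. The genes and lists were chosen with earlier results of these data known. The code was tested on simulated data. Levels, intervals and plots were made with scipy 1.17.1, pandas 2.3.3, numpy 2.4.6 and matplotlib 3.10.9 under python 3.11.15. Alternatives were library size alone, size factors of DESeq2 1.42.0, TMMwsp, summed counts, medians over cells, thinning to 4264780 counts, leaving out the 3 induced cells with fewer than 5000 genes, a log2 ratio of 1, equal weight for library runs, and leaving out each cell, which for the genes of the other lists was added after the data were seen.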

Additional observations from a re-analysis of the deposited data

How the results depend on the processing

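Of 38 log2 ratios past 2 for the 9 genes in 9 comparisons, 281 values under the alternatives were obtained. Of these, 269 stayed past 2 in the same direction, 12 kept their sign below it and 0 changed sign. Calls lost because a setting gave no ratio, as where both medians were at or under the floor, are not among the 281. Leaving out each cell is not among them either and is given below. It alone brought Pcdh15 in nascent HCs against WT_P60 SCs under 2 for 15 of 32 cells. Medians over cells, at 0 for genes held by a minority of cells, gave fewer genes past the fold: 3 higher in WT_P30 OHCs than in WT_P60 SCs (6 by means), 2 in OHC-like cells (5), 3 in nascent HCs (6), and 0 higher and 0 lower in failing SCs (2 and 2). Against WT_P30 OHCs, medians gave 2 higher in nascent HCs, as did equal weight for library runs (1 in each case by means over cells). Thinning to the smallest total gave 1 gene lower in failing SCs than in WT_P60 SCs. At a log2 ratio of 1, 2 genes were higher and 5 lower in OHC-like cells than in WT_P30 OHCs, 3 higher in nascent HCs than in WT_P30 OHCs, 2 higher and 2 lower in OHC-like cells than in nascent HCs, and 5 higher in OHC-like cells than in failing SCs. Between OHC-like cells and nascent HCs, the count lower was 0 with library size alone and with medians, and the count higher was 1 with DESeq2's size factors, thinning, no cells of few genes or equal weight for runs. The cause of these changes was not tested.

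Leaving out each cell in turn, the counts of genes past the fold were 1 to 2 higher and 1 to 2 lower in failing SCs than in WT_P60 SCs, 0 to 1 lower in nascent HCs than in WT_P60 SCs, 0 to 2 higher in OHC-like cells and 1 to 2 in nascent HCs than in WT_P30 OHCs, and 0 to 1 higher and 0 to 1 lower in OHC-like cells than in nascent HCs. The other comparisons moved by at most 1 gene in either direction. Over the same 9 comparisons, 42 of 56 calls of the 11 partner genes and 4 of 7 of the brush border genes held without any 1 cell. The partner calls include those of Myo7a, which was used to sort the induced cells.

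Detection in the 45 gene and group combinations changed in 1 when every cell was thinned to the same total (Pdzd7 in failing SCs, by 1 cell), in 14 at 10 CPM (by at most 2 cells) and in 25 at a single count (by at most 3 cells, Adgrv1 in WT_P30 OHCs). Without the filter on low counts, 3000 genes were past the fold and higher in WT_P30 OHCs than in WT_P60 SCs (1510 with it) and 4357 lower (2512), and between OHC-like cells and nascent HCs 2036 were higher (419) and 2109 lower (580). No paired analysis was possible because no test was made and a cell's number only names it.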
